A study of Mus musculus with 6 samples.

Results

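The genes described here encode the proteins of the mitochondrial ribosome, the machine that translates the messages of the mitochondrial genome inside the organelle. They were taken by name, as the protein-coding mouse genes whose symbol is Mrpl (large subunit) or Mrps (small subunit) followed by a digit, with a mean of at least 10 raw counts over the libraries. Of the 55364 genes listed in the count tables, 78 had such a symbol, and all 78 of 78 passed the minimum. No gene lay just outside it, and the member with the fewest reads was Mrps27, with a mean of 11.3 counts.

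Mitochondrial ribosomes make the hydrophobic core subunits of the respiratory chain, and their own proteins are all encoded in the nucleus, made in the cytosol and imported. Many of these proteins have bacterial homologues, while others were added in the mitochondrial lineage. The symbols do not always give the place of a protein: Mrps30 and Mrps18a sit in the large subunit (as mL65 and mL66), and Mrps36, also known as KGD4, is a component of the alpha-ketoglutarate dehydrogenase complex and not of the ribosome.

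RNA came from primary mouse lung fibroblasts (LFs) of WT C57Bl6/J mice and of littermates that the sample labels call TKS5 knockout, with 3 libraries in each group, and all 6 were starved of serum and then exposed to 10 ng/ml TGF-β, a profibrotic cytokine, for 24 h. TKS5 is the podosome scaffold protein encoded by Sh3pxd2a. The study names the second genotype Tks5+/-: a single copy of Sh3pxd2a lacks an exon, removed by Cre under a CMV promoter in all tissues and so not in fibroblasts alone, and animals with no intact copy were not viable. The mice were 8 to 10 weeks old, the LFs were used after few passages in culture, and no library without TGF-β was analysed here. The labels do not say whether the 3 libraries of a group came from separate animals or cultures, so the p-values measure only the spread between these libraries.

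Reads were taken from the ends of polyadenylated transcripts and counted per gene, with totals of 1344507 to 2369882 counts per library. Sh3pxd2a itself had 205, 190 and 284 counts in the WT libraries and 238, 258 and 260 in those labelled knockout (log2 fold change 0.29, 95% CI -0.13 to 0.71, adjusted p = 0.249). By quantitative RT-PCR, the study reports lower Tks5 mRNA in Tks5+/- LFs than in WT LFs, and the counts here showed no such fall. The reason for this difference was not tested. The end of this transcript lies outside the deleted exon, so these counts do not check the genotype. Every direction below rests on the labels. Markers of other cells moved with the groups. Of 13 macrophage markers 10 could be tested and 6 fell. Their summed level was 356 to 2120 CPM (counts scaled to a common library size with TMM) in the WT libraries, with the highest value in the third, and 127 to 141 CPM in the labelled knockout, where Adgre1 and Ptprc were at 0. Of 8 endothelial markers 4 could be tested and 3 fell (109 to 135 against 45.6 to 60.4 CPM), and Vwf, Tek and Pecam1 were at 0 in the labelled knockout. Of 4 mesothelial markers 1 could be tested and it fell (18.2 to 23.8 against 2.56 to 8.23 CPM). Of 10 epithelial markers 2 could be tested, 1 rose and 1 fell, with summed levels that overlapped. In the labelled knockout 7 epithelial markers were at 0, and 4 of these (Nkx2-1, Sftpc, Scgb1a1 and Sftpb) were at 0 in all WT libraries too. The 10 fibroblast markers were summed at 7850 to 10200 against 9760 to 13600 CPM, and none of them was at 0 in either group. Of these, Thy1 (log2 fold change 1.93), Vim (1.27), Pdgfra (0.69) and Col3a1 (0.64) rose and Pdgfrb fell (-1.0). The Y-linked Ddx3y fell (log2 fold change -2.84, adjusted p = 1.45e-08), while Eif2s3y, also Y-linked, was at 9.65 against 8.34 CPM (-0.23, adjusted p = 0.688). A further gene that fell was Nnt, the mitochondrial transhydrogenase whose gene is disrupted in C57BL/6J mice (-1.58, adjusted p = 2.07e-04). The part of these differences in the results below was not tested. In bulk RNA, fewer cells of a type and less RNA per cell cannot be told apart.

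As a family, the mitochondrial ribosomal protein genes were higher in the labelled knockout. At a false discovery rate of 0.05 and a change of 1.2-fold or more in edgeR's quasi-likelihood test, 45 of 78 members rose (57.7%), 1 fell (1.28%) and 32 were not called. Among all 10346 genes tested, 22.8% were called higher and 22.1% lower. The median log2 fold change was 0.78 for the members and -0.05 for all genes tested. Fitted values lay above 0 for 66 members and below 0 for 12, and ran from -0.73 for Mrpl1 to 2.58 for Mrps31. The called rises were 1.42-fold to 5.99-fold with a median of 2.1-fold, and 25 of the 45 were at least 2-fold. In CPM, every labelled knockout library lay above every WT library for 51 members and below for 4, against 26.1% and 27.6% of all genes tested. Of the 45 members that rose, 43 had groups that did not overlap, and the exceptions were Mrpl18 and Mrpl41. Without the third WT library, in which the macrophage markers were highest, 42 members rose and the median was 0.83. Of all genes tested in that fit, 20.2% were called higher and 18.0% lower, with a median of -0.02. The first and second WT libraries still held 423 and 356 CPM of these markers, against 127 to 141 CPM in the labelled knockout. This fit therefore does not remove the difference in markers. The second labelled knockout library held the highest value for 28 of the 45, the third for 12 and the first for 5.

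**Figure D1:**
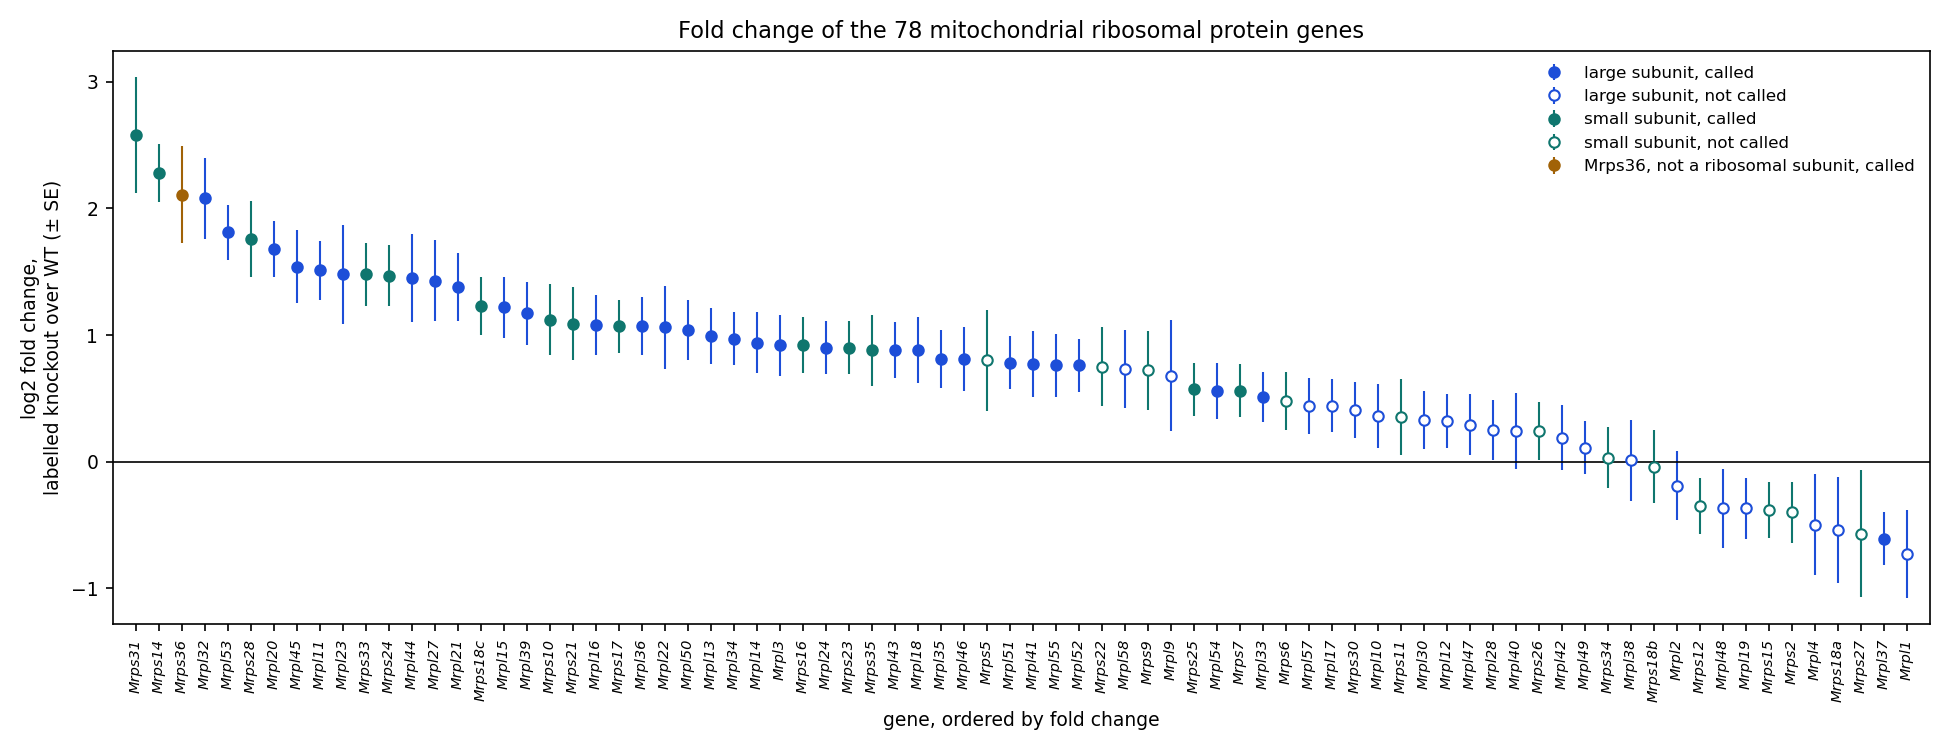
Log2 fold change (labelled knockout over WT) of the 78 members with the standard error of the fit, ordered from high to low and coloured by subunit, with filled points for members that passed the test. The points run from 2.58 for Mrps31 to -0.73 for Mrpl1, and Mrpl37 is the filled point below 0.

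The summed level of the members was 3767, 3814 and 3992 CPM in the WT libraries and 5686, 7071 and 6330 CPM in the labelled knockout, with no overlap and a ratio of the means of 1.65. As a plain share of all counts, the members took 0.435%, 0.433% and 0.454% against 0.524%, 0.572% and 0.531%, a ratio of 1.23. The ratios differ because TMM factors were 1.15 to 1.17 in the WT libraries and 0.817 to 0.932 in the labelled knockout. Tmsb4x alone, which encodes the actin-binding thymosin beta 4, took 2.77% to 3.31% of the counts of the labelled knockout libraries, more than any other gene in them. When libraries were scaled by their totals alone, 25 members rose and 7 fell (Mrpl37, Mrps15, Mrpl1, Mrpl19, Mrpl48, Mrps2 and Mrps12), beside 13.2% and 38.1% of all genes tested. The median log2 fold change of the members was then 0.34, while that of all genes moved to -0.47. The counts of members in each direction therefore depend on the scaling, and in both scalings the median of the members lay above that of all genes.

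**Figure D2:**
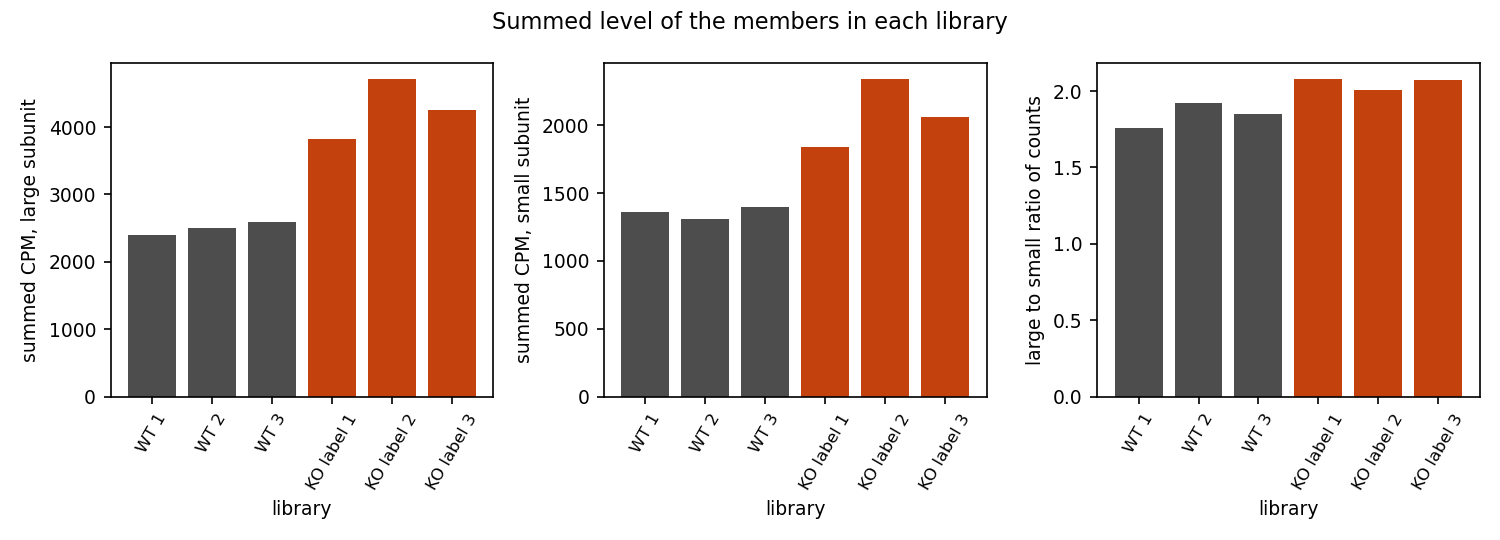
Summed TMM-scaled CPM of the 51 large and the 26 small subunit members, and the ratio of their summed raw counts, in each of the 6 libraries (bars start at 0; grey, WT; orange, labelled knockout). All 3 labelled knockout libraries lie above all 3 WT libraries in each panel, and in the ratio panel this depends on Mrpl53.

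Members of both subunits rose. Of the 51 large subunit members 30 rose and 1 fell, with a median log2 fold change of 0.77, and of the 26 small subunit members 14 rose and none fell, also with a median of 0.77. Summed raw counts of the large subunit were 1.76, 1.92 and 1.85 times those of the small subunit in the WT libraries. They were 2.08, 2.01 and 2.07 times in the labelled knockout, and the groups did not overlap. This separation depends on Mrpl53, which had 226, 253 and 405 counts in the WT libraries and 692, 1061 and 1002 in the labelled knockout. Its reads cannot be told apart from those of Gm42688 (below), and without them the ratios of the groups overlap. Members with bacterial homologues and those specific to mitochondria were both represented: 28 of 46 rose among the former (median 0.89), and 16 of 31 rose and 1 fell among the latter (median 0.73). The difference between these classes was not tested. Of the 31 members with a mean of 100 or more counts 23 rose and 1 fell (median 0.88), and of the 47 with fewer counts 22 rose and none fell (median 0.75). Calls depend on the number of reads, and shares of all genes in these count classes were not taken.

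Among the small subunit members, the smallest adjusted p was that of Mrps14, a conserved protein of the head of the subunit (chr1:160195215-160202170, plus strand, GRCm38). It had 38.0, 26.8 and 27.8 CPM in the WT libraries and 127, 177 and 143 CPM in the labelled knockout, a log2 fold change of 2.28 ± 0.23 (SE, n = 3 in each group, adjusted p = 1.17e-07 by edgeR). The lowest labelled knockout library was far above the highest WT library. Mrps31, a head protein found only in mitochondrial ribosomes (chr8:22411361-22429665, plus strand), had the highest fitted fold change of the family, with 3.86, 1.07 and 4.08 CPM against 11.0, 26.3 and 18.9 CPM (2.58 ± 0.46, adjusted p = 9.18e-05 by edgeR). Its level was low in the WT libraries and its standard error was correspondingly wide. Mrps24, the homologue of the bacterial protein that lines the mRNA entry (chr11:5703983-5715680, minus strand), was at 42.5, 26.8 and 33.4 CPM against 83.4, 123 and 76.2 CPM (1.47, adjusted p = 4.56e-05). Mrps33, another head protein specific to mitochondria, was at 18.0, 21.4 and 25.2 CPM against 55.4, 76.1 and 51.2 CPM (1.48, adjusted p = 5.03e-05). Mrps28 was at 21.2, 12.8 and 11.5 CPM against 54.3, 65.5 and 32.2 CPM (1.76, adjusted p = 6.53e-05). None of these genes had overlapping groups.

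By place in the small subunit, 7 of the 8 members assigned here to the head rose (Mrps7, Mrps10, Mrps14, Mrps24, Mrps31, Mrps33 and Mrps35), with a median log2 fold change of 1.30 over the 8. The exception was Mrps9, at 8.37, 15 and 20.4 CPM against 29.6, 24.0 and 21.0 CPM (0.72, adjusted p = 0.0633). Of 9 conserved members of the body and platform, 4 rose (Mrps16, Mrps17, Mrps18c and Mrps21) and 5 were not called, and the median was 0.80. Mrps12, the counterpart of the bacterial decoding-centre protein that mutates in streptomycin resistance, was at 189, 223 and 161 CPM against 113, 154 and 182 CPM (-0.35, adjusted p = 0.199). Mrps15, a protein that binds the small rRNA early in assembly, was at 83.0, 97.9 and 89.7 CPM against 57.6, 87.8 and 63.5 CPM (-0.38, adjusted p = 0.164). In both genes the groups overlapped. Mrps6, the small subunit member with the most reads, was at 338, 277 and 418 CPM against 319, 592 and 531 CPM (0.48, adjusted p = 0.0991), and its groups overlapped too. These places were assigned with the values known, and the difference between head and body was not tested. The sets were also formed by unlike rules: the head set includes Mrps31, Mrps33 and Mrps35, which are specific to mitochondria, while the body and platform set holds only conserved members. Other small subunit members, the conserved Mrps2 and Mrps28 among them, are in neither set. After the dependence of counts on transcript length was removed from each library, 6 members of the head and 4 of the body and platform were called higher, and with library totals alone 5 and 2.

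The 3 Mrps18 genes encode related proteins with different places in the ribosome. Mrps18c, the form that takes the place of the bacterial protein, rose from 50.8, 69.6 and 44.5 CPM to 128, 155 and 103 CPM (log2 fold change 1.23, adjusted p = 1.57e-04 by edgeR). Mrps18b, which occupies a site of its own in the small subunit (mS40), was at 20, 17.7 and 28.2 CPM against 17.0, 20.5 and 27.1 CPM (-0.04, adjusted p = 0.923). Mrps18a, in the large subunit, was at 19.3, 8.03 and 11.9 CPM against 4.94, 14.0 and 7.68 CPM (-0.54, adjusted p = 0.300). The groups were apart for Mrps18c and overlapped for Mrps18a and Mrps18b. With the correction for transcript length, Mrps18c was at 0.65 (adjusted p = 0.0249 by edgeR). With length and GC content corrected together its call was lost (0.23, adjusted p = 0.435 by edgeR).

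In the large subunit, Mrpl20, the homologue of a bacterial assembly protein (chr4:155802878-155809975, plus strand), rose from 66.9, 60.5 and 63.0 CPM to 170, 262 and 181 CPM, a log2 fold change of 1.68 ± 0.22 (SE, n = 3 in each group, adjusted p = 2.56e-06 by edgeR). Mrpl32, a zinc-binding protein that is matured by the m-AAA protease before it joins the ribosome (chr13:14608184-14613165, minus strand), rose from 6.44, 9.10 and 13.3 CPM to 36.8, 58.5 and 31.7 CPM (2.08 ± 0.32, adjusted p = 1.68e-05 by edgeR). Mrpl11, at the base of the stalk that recruits translation factors (chr19:4962147-4966999, plus strand), rose from 40.5, 43.9 and 37.1 CPM to 111, 143 and 91.6 CPM (1.51 ± 0.23, adjusted p = 1.33e-05 by edgeR). In all 3 genes the groups were far apart. The other stalk proteins were not called: Mrpl12 was at 101, 84.5 and 71.9 CPM against 90, 106 and 125 CPM (0.32, adjusted p = 0.228), and Mrpl10 had a log2 fold change of 0.36 (adjusted p = 0.250).

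Mrpl53, a large subunit protein specific to mitochondria (chr6:83109040-83109939, plus strand), had the second smallest adjusted p of the family, with 145, 135 and 150 CPM in the WT libraries and 380, 621 and 513 CPM in the labelled knockout (1.81 ± 0.22, adjusted p = 9.74e-07 by edgeR). A second annotated gene on the same strand, Gm42688, covers its end and had nearly the same counts in every library, with a largest difference of 28, so the reads of the pair cannot be told apart. Mrpl24, at the polypeptide exit, showed the same with a gene of the opposite strand: it had 149, 134, 222, 312, 252 and 287 counts over the WT and then the labelled knockout libraries, and Rrnad1 had 143, 130, 227, 313, 263 and 290. Its rise (0.90, adjusted p = 0.00117) cannot be assigned to either gene of the pair. Of the 78 members, 17 had another annotated gene over their end, 14 of them on the opposite strand and 5 on the same strand. Without these 17, 39 of 61 members rose and 1 fell, with a median log2 fold change of 0.88. Of all genes tested, with or without such an overlap, 22.8% were called higher and 22.1% lower.

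Around the exit, where the new chain leaves and is handed to the inner membrane, 4 of 6 members rose: Mrpl22, Mrpl23, Mrpl24 and Mrpl45, which anchors the ribosome to the membrane. Mrpl45 was at 11.6, 13.9 and 10.8 CPM against 24.7, 39.8 and 40.9 CPM (1.54, adjusted p = 1.80e-04). Mrpl17, one of the members with the most reads, was at 241, 302 and 316 CPM against 427, 324 and 415 CPM (0.44, adjusted p = 0.0845). Its groups did not overlap, but it missed the threshold. Of 4 members around the peptidyl transferase centre, where peptide bonds form, Mrpl3, Mrpl16 and Mrpl27 rose by 0.92 to 1.43 on the log2 scale and Mrpl2 was not called (-0.19). Of 7 members assigned here to the central protuberance, which touches the small subunit, Mrpl18, Mrpl46, Mrpl52 and Mrpl55 rose by 0.76 to 0.88 on the log2 scale. Mrpl38 (0.01), Mrpl40 (0.24) and Mrpl48 (-0.37) were not called, and the list need not be complete. All 4 calls in this structure were lost with the correction for transcript length (0.18 to 0.43, adjusted p from 0.172 to 0.519) and with library totals alone. At the exit, the calls of Mrpl22 and Mrpl24 were lost under the same 2 settings. Mrpl17 was called higher with the length correction (0.96, adjusted p = 5.99e-04 by edgeR), so that 3 exit members were called there. Around the peptidyl transferase centre the call of Mrpl3 was lost with library totals alone.

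Mrpl37, a large subunit protein specific to mitochondria (chr4:107055874-107066868, minus strand), was the member that fell. It was at 86.2, 77.6 and 94.5 CPM in the WT libraries and 57.1, 53.8 and 58.3 CPM in the labelled knockout, a log2 fold change of -0.61 ± 0.21 (SE, n = 3 in each group, adjusted p = 0.0202 by edgeR). The groups did not overlap, but the call was lost without the third WT library (-0.54, adjusted p = 0.0789), the second labelled knockout library (-0.55, adjusted p = 0.0677) or the third (-0.60, with an adjusted p at the threshold). Its relative Mrps30 was at 36.7, 36.4 and 39.3 CPM against 52.7, 54.4 and 42.5 CPM (0.41, adjusted p = 0.144). Mrpl1, Mrpl19 and Mrps2 were also lower in every labelled knockout library than in any WT library, with log2 fold changes of -0.73, -0.37 and -0.40, and none of them was called.

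Mrpl33, a small protein of the large subunit with many reads, had the smallest of the called rises: it was at 277, 304 and 279 CPM against 370, 455 and 401 CPM (0.51, adjusted p = 0.0379). It was called in only 8 of 21 alternatives, and lost the call with the GC correction and without any single library other than the first labelled knockout library. With the authors' normalized counts its log2 fold change was -0.03, and those of Mrps6 and Mrpl17, the other members with the most reads, were -0.11 and -0.07. Mrps36, which is not a ribosomal protein, rose from 3.86, 3.21 and 4.08 CPM to 17.0, 15.8 and 16.4 CPM (2.11 ± 0.38, adjusted p = 1.23e-04 by edgeR). Its level was low and even within each group. A pseudogene copy, Mrps36-ps1, had a mean of 15.8 counts against 18.8 for Mrps36 and also rose (1.12, adjusted p = 0.0262), so reads may have been split between them. Likewise Mrpl23-ps1 had a mean of 45.3 counts against 39.7 for Mrpl23, which rose from 20.6, 8.03 and 7.04 CPM to 24.7, 48.0 and 23.0 CPM (1.48, adjusted p = 0.00503). Both genes are uncertain for this reason.

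**Figure D3:**
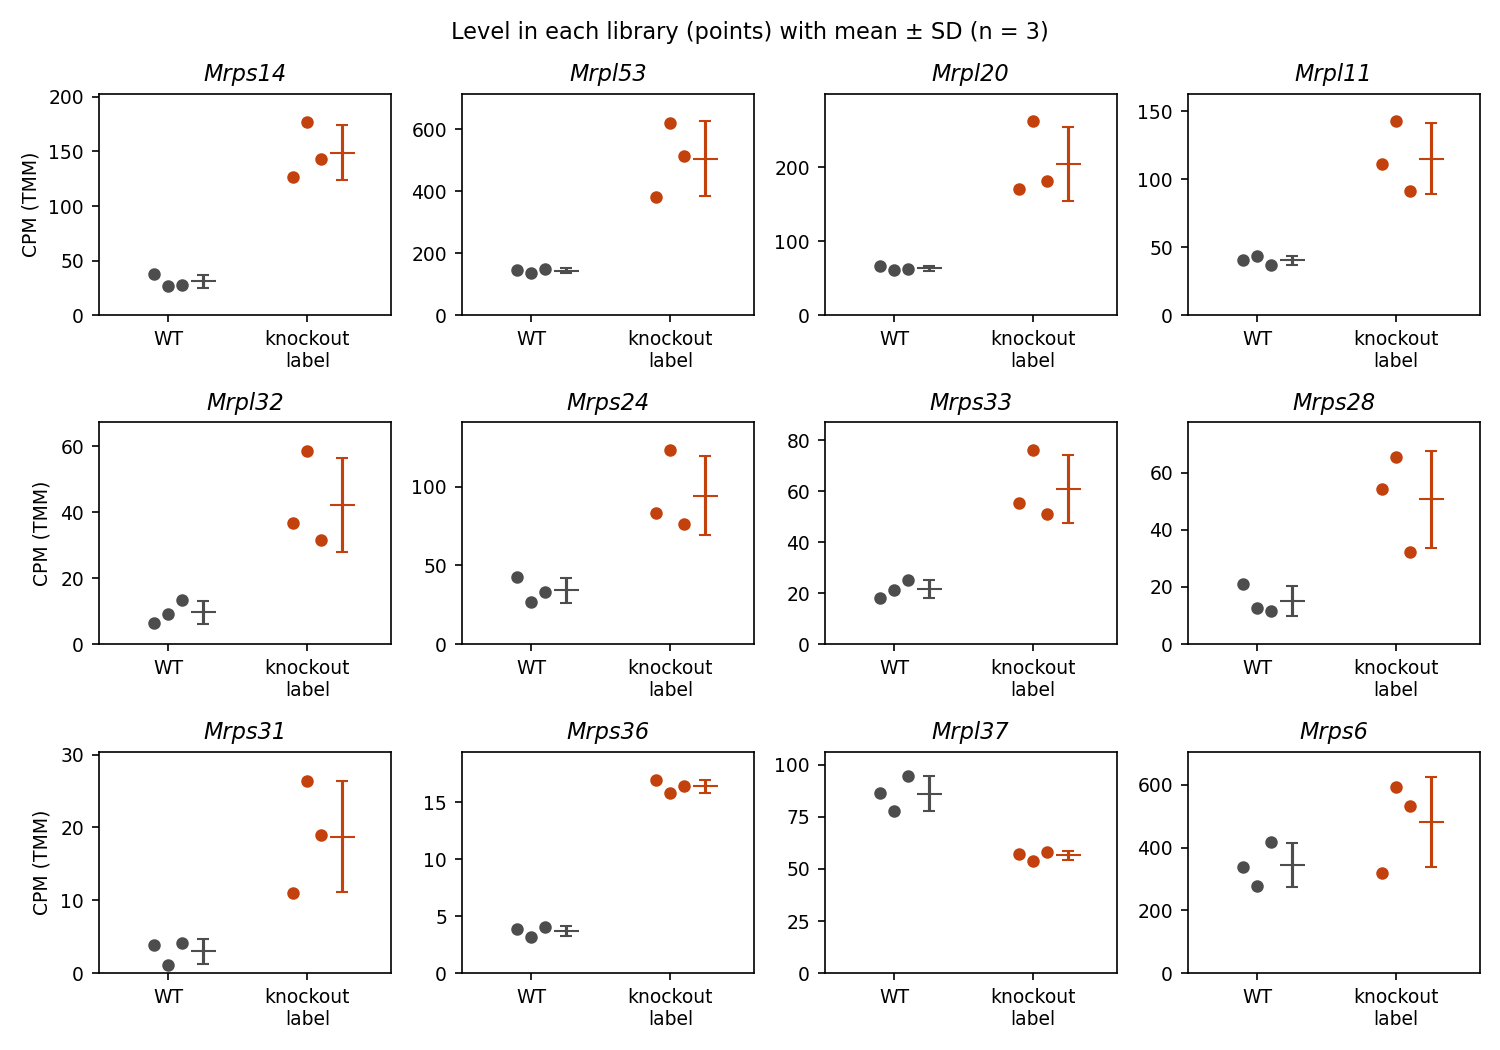
TMM-scaled CPM of 12 members in each library (points; grey, WT; orange, labelled knockout) with the mean and SD of each group (n = 3), on linear axes that start at 0. The groups are apart in every panel except that of Mrps6, and Mrpl37 is the panel in which the labelled knockout lies lower.

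Fold changes in these libraries moved with the length of the transcript over all genes. Spearman's rho between the log2 fold change and the length of the longest annotated transcript was -0.397 over 10339 genes and -0.153 over the 78 members, whose median length was 1866 bases against 3204 for all genes tested. These are correlations across genes that share the same libraries, given as descriptions. Among transcripts under 1 kb, 16 of 17 members rose and none fell, beside 55.9% and 5.74% of all genes, and the medians were 1.07 and 0.85. From 1 to 2 kb, 9 of 24 members rose, and none fell, beside 36.8% and 12% of all genes, and the medians were 0.36 and 0.37. In this class the share called higher and the median were close to those of genes of like length, and the share called lower was not. From 2 to 4 kb, 14 of 26 members rose and 1 fell, beside 21.1% and 20.7% of all genes, with medians of 0.77 and -0.03. Over 4 kb, 6 of 11 members rose and none fell, beside 8.56% and 32.9%, with medians of 0.80 and -0.42. By this measure, the gap between the members and other genes was widest among genes with longer annotated transcripts. The longest annotated transcript of any type was used, and it need not be the one read in these libraries. Members may thus be placed in a class longer than their mRNA, and the length correction below shares this limit.

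**Figure D4:**
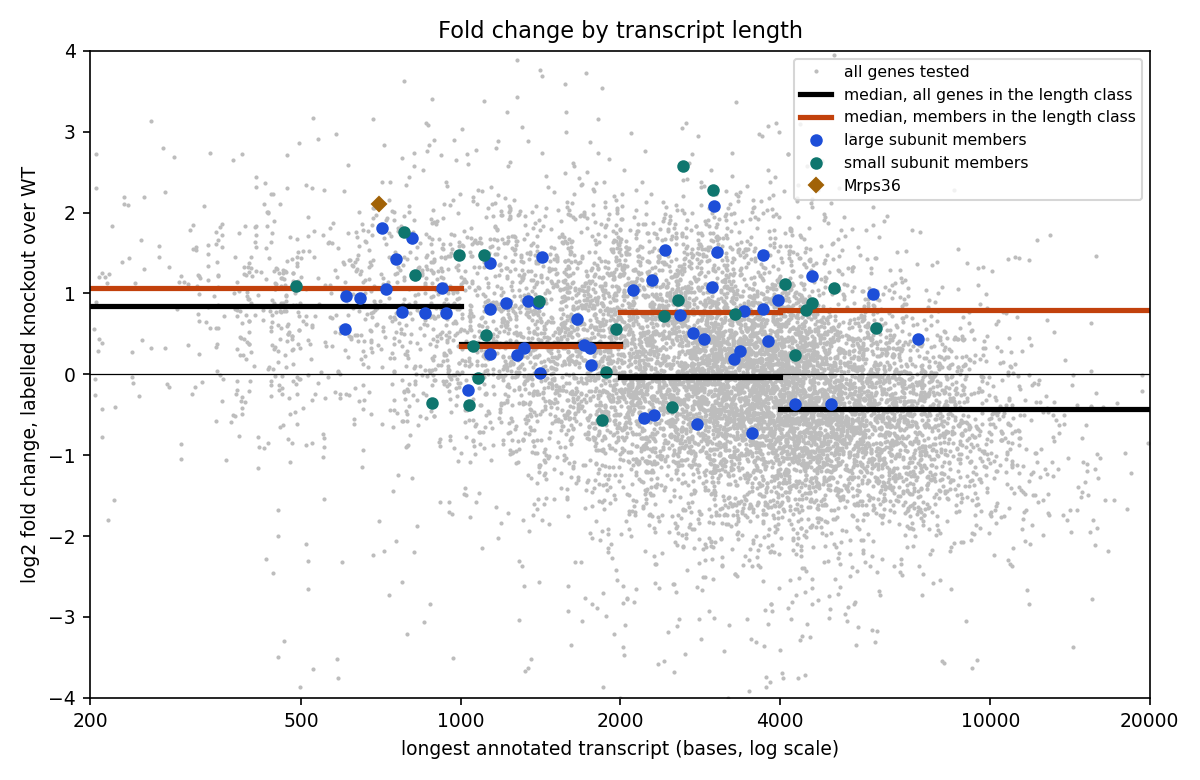
Log2 fold change against the length of the longest annotated transcript (log axis) for all genes tested (grey; the axis is limited to -4 to 4) and the members (colours), with the median of each length class for all genes (black) and for the members (orange). The orange and black lines lie together from 1 to 2 kb, at 0.36 and 0.37, and apart over 4 kb, at 0.80 and -0.42.

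When each library was corrected for its trend with transcript length, 35 of 78 members rose (44.9%) and 4 fell (5.13%), beside 20.9% and 17.9% of all genes tested, and the median log2 fold change was 0.51 for the members. Of the 45 members called higher without the correction, 31 were called higher with it, and 4 others were called only with it. Named members with short transcripts kept their calls at smaller log2 fold changes. These were 1.52 for Mrps36, 1.19 for Mrpl53, 1.17 for Mrps28, 1.09 for Mrpl20, 0.98 for Mrps33 and 0.92 for Mrps24. The longer Mrps31 (2.57), Mrps14 (2.32), Mrpl32 (2.12) and Mrpl11 (1.56) stayed close to their uncorrected values. Mrpl37, Mrps12, Mrps15 and Mrpl2 were the members that fell, with log2 fold changes of -0.92 for Mrps12 (adjusted p = 0.00168) and -0.91 for Mrps15 (adjusted p = 0.00154). Under the correction, 7 of the 17 members under 1 kb rose and 1 fell, beside 25% and 18.4% of all genes of that length, and 8 of the 11 over 4 kb rose and none fell, beside 17.0% and 15.9%. From 1 to 2 kb, 4 of 24 members rose and 2 fell, beside 25% and 19.8%.

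Calls among the partners of these proteins went in both directions, and their shares stand beside 22.8% higher and 22.1% lower for all genes tested. Of 5 other subunits of the mitochondrial ribosome that carry different symbols, 2 rose (40.0%) and none fell. These were Chchd1 (log2 fold change 1.41, adjusted p = 1.23e-05) and Aurkaip1 (1.22, adjusted p = 7.57e-05). Dap3, a GTP-binding protein of the small subunit head, was at 0.40 (adjusted p = 0.129). Of 18 mitoribosome assembly factors tested 3 rose and 3 fell (16.7% each, both below the share of all genes), with a median of 0.12. Ngrn, which binds the large rRNA, rose (1.95, adjusted p = 7.59e-07), as did Malsu1, which keeps the immature large subunit from joining the small (1.61, adjusted p = 1.36e-05), and Mettl15, an rRNA methyltransferase (1.92, adjusted p = 4.47e-04). Fastkd2, Nsun4 and Rcc1l fell (-2.43, -0.96 and -1.07). Of 13 genes of mitochondrial translation and mRNA handling 2 rose (15.4%) and 1 fell (7.69%), again below the shares of all genes. Lrpprc, which stabilises mitochondrial mRNAs, had 1317, 1959 and 3271 counts in the WT libraries and 559, 409 and 904 in the labelled knockout (-1.62, adjusted p = 1.22e-05), while its partner Slirp rose (0.94, adjusted p = 7.18e-04). These partners therefore moved in opposite directions.

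Of 12 mitochondrial tRNA synthetases tested only Yars2 was called, and it rose (1.07), a share of 8.33% beside 22.8% of all genes. Of 5 genes of mitochondrial DNA expression, Tfam (1.13) and Hsd17b10 (1.07) rose and Polrmt (-1.07) and Fastkd5 (-1.49) fell. Among 6 regulators of mitochondrial biogenesis 1 was called (16.7%): Esrra, a nuclear receptor, rose (0.92, adjusted p = 0.00244). Nrf1 was at 0.34, Gabpa at -0.55 and Yy1 at 0.13. Ppargc1a had no count in any library. A larger share was called in families that work beside the mitochondrial ribosome. Of 80 subunits of oxidative phosphorylation (OXPHOS) complexes 61 rose (76.2%) and 4 fell (5.0%), with a median of 0.98. Of 83 cytosolic ribosomal proteins 73 rose (88.0%) and none fell, with a median of 1.19. Both have short transcripts, with median lengths of 1003 and 1094 bases. With the length correction, their medians were 0.65 and 0.73, beside 0.51 for the mitochondrial ribosomal proteins. With libraries scaled by their totals alone, the medians were 0.56 for the OXPHOS subunits and 0.76 for the cytosolic ribosomal proteins, while those of the other mitochondrial ribosome subunits (0.40 with TMM) and the assembly factors were -0.02 and -0.31.

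**Figure D5:**
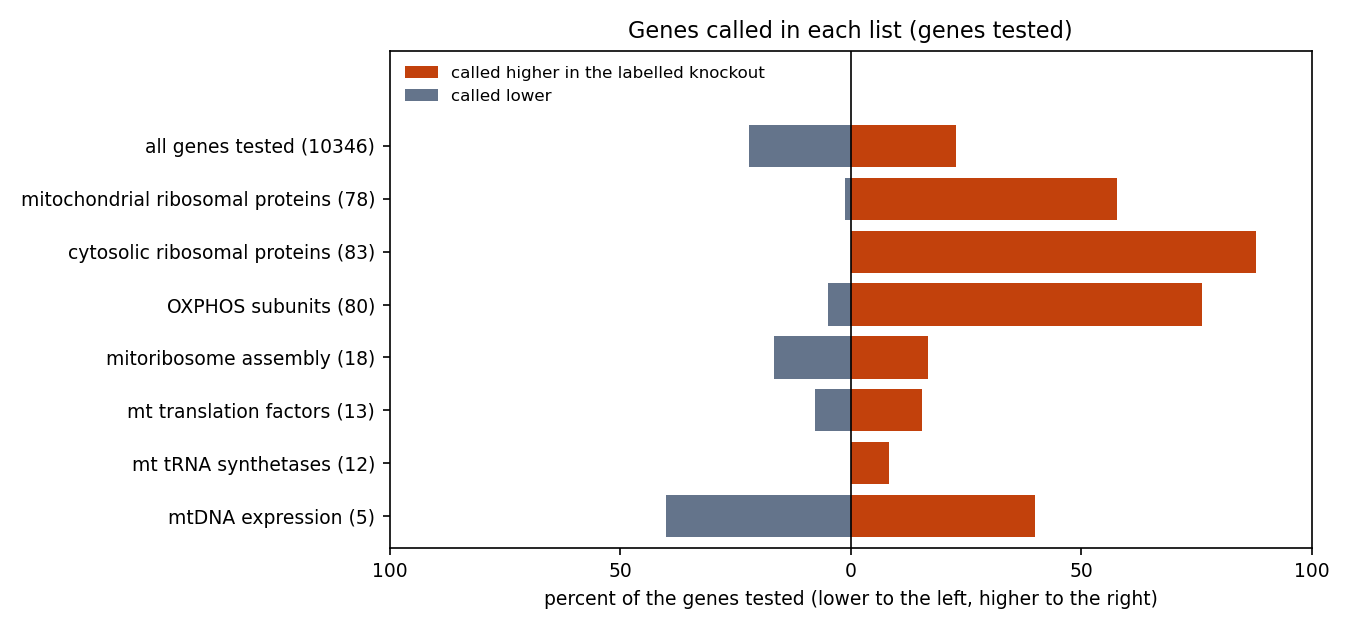
Percent of the genes tested that were called higher (orange, right) or lower (grey, left) in the labelled knockout, for all genes, the 78 members and 6 lists of related genes, with the number tested in brackets. The members stand at 57.7% higher and 1.28% lower, below the cytosolic ribosomal and OXPHOS lists on the right and above all genes tested at 22.8%.

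Many nuclear genes for mitochondrial proteins have binding motifs for ETS factors such as GABP, for NRF1 and for YY1 close to their start. Promoter sequence (RefSeq, GRCm38.p6, 250 bases before to 50 after the start) was found for 69 of the 78 members. The letters CCGGAAG (ETS), read on both strands, occurred in 26 of the 69 (37.7%), beside 21.9% of 7592 tested genes and 9.93% of all 27025 genes in the table. For GCATGCG (NRF1) the shares were 11.6%, 7.63% and 4.01%, and for ATGGCGG (YY1) 18.8%, 10.4% and 4.69%. None of the 3 motifs occurred in 32 of the 69 members (46.4%). GCATGCG shares most of its letters with its own reverse complement, so a single site can match on both strands, and ATGGCGG can include a start codon. The ETS letters occurred in 16 of 40 members that rose (40.0%) and in 10 of 28 that were not called (35.7%). The NRF1 letters occurred in 10.0% and 14.3% of these, the YY1 letters in 12.5% and 25%, and none of the motifs in 50% and 42.9%. These differences were not tested. The 4 windows printed next hold the last 120 bases before the annotated start of a member, 5′ to 3′ on the strand of the gene and with motif letters in capitals, and are shown because they pair the motifs with the values. Mrpl22 (chr11:58171541-58171660, plus strand), which lines the exit tunnel, holds an ETS and an NRF1 match and rose by 1.06 on the log2 scale (adjusted p = 0.0115). Mrpl43 (chr19:45006443-45006562, minus strand), a protein specific to mitochondria, holds a pair of ETS matches and rose by 0.88 (adjusted p = 0.00253). Both calls were lost with the length correction and with library totals alone. Mrpl58 (chr11:115403632-115403751, plus strand), a peptidyl-tRNA hydrolase that frees stalled ribosomes, holds an ETS match and the first letters of another, and was not called (0.73, adjusted p = 0.0571). Mrps14 (chr1:160195095-160195214, plus strand), whose values are given above, holds none of the motifs.
Mrpl22: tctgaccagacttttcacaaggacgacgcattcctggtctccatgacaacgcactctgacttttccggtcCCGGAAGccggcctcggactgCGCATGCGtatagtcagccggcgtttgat
Mrpl43: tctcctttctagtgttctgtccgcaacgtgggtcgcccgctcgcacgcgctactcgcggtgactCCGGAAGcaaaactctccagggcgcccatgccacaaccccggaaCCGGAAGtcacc
Mrpl58: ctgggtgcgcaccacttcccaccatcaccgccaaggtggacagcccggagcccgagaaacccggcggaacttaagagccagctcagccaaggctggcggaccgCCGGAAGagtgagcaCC
Mrps14: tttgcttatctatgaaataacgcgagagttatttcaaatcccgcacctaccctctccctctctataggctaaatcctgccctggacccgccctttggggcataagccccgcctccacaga
A match is a stretch of letters and not a measured binding site, and no match says only that these letters are not in the window. In these windows the genes with and without matches both included members that rose.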

How the data were processed

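Quant-Seq 3' mRNA libraries of 3 WT and 3 labelled TKS5 knockout LF samples were analysed. Ion Torrent reads were trimmed (Trim Galore), mapped to GRCm38 (HISAT2, followed by Bowtie2) and counted over 3' UTR regions (metaseqR2) by the authors, who deposited raw counts per gene; whether strand was used is not given in the sources used here. They also deposited counts normalized with EDASeq and rounded, treated here as a score, in which all 6 columns hold the same total; these entered only 1 alternative. Total counts per library were 1344507 to 2369882, and these totals limit the precision of members with few reads. No 2 libraries of a group agreed within sampling noise (chi-square per degree of freedom 3.89 to 10.5).

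Of 55364 gene IDs, 55104 were matched to symbols, transcript lengths and coordinates of GENCODE vM21 (GRCm38). The comparison used edgeR 4.0.16 in R 4.3.3 (filterByExpr, TMM, robust quasi-likelihood F test, Benjamini-Hochberg over 10346 genes), with calls at an adjusted p below 0.05 and a change of 1.2-fold or more, the thresholds of the study; its combination of several tests was not run here. Exact two-sided permutation tests of single members cannot go below p = 0.1 with 3 against 3. The fitting script was tested on simulated data. A gene counted as lying over the end of a member if it overlapped the last 300 bases or the next 50. Length correction removed a loess trend (span 0.5, prior count 2) from each library.

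The members and lists were chosen with earlier results of these data known. Members named in the text were the 10 called higher and 10 called lower with the smallest adjusted p, the 3 with the highest mean count, the 5 not called with the highest mean count, and those whose symbol is at odds with their place. In each other list the 3 genes tested with the smallest adjusted p could be named. Every other gene, the structural places and the printed promoters were chosen after their values were seen. The alternatives were DESeq2 1.42.0, limma-voom and limma 3.58.1 on the authors' normalized counts (pseudocount 1), RLE and upper-quartile scaling, library totals alone, other filters on low counts and other fold change thresholds, length and GC corrections, a replicate block, and fits without each library.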

Additional observations from a re-analysis of the deposited data

How the results depend on the processing

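The number of members called higher was 45 and lay within 1.5 times of this in all alternatives except 2: library totals alone (25 higher, 7 lower, median log2 fold change 0.34, beside 13.2% higher and 38.1% lower of all genes) and the length and GC correction together (28 higher, 3 lower, median 0.37, beside 19.7% and 16.8%). The length correction alone gave 4 lower and a median of 0.51, and with the replicate block added 3 lower and a median of 0.50. Of all genes, 17.9% and 18.0% were called lower in these 2 fits. Fits that left out a single library gave 38 to 46 higher, 0 to 1 lower and medians of 0.67 to 0.88. In these fits 18.6% to 22.6% of all genes were called higher and 16.2% to 19.4% lower. The count lower was 0 without WT library 3, which held the highest macrophage marker level (42 higher), and without labelled knockout library 2 or 3, where edgeR called 41 and 45 members higher. DESeq2 called 42 higher and 1 lower, beside 9.64% and 7.84% of all 21720 genes with a count. For limma-voom the counts were 45 and 1, beside 22.4% and 21.8% of all genes tested. For limma on the authors' normalized counts they were 44 and 1, beside 21.1% and 21.0%. With that last table the log2 fold changes of the 3 members with the most reads turned below 0: -0.03 for Mrpl33, -0.11 for Mrps6 and -0.07 for Mrpl17, none of them called there. The cause was not tested. Of the 45 members called higher, 20 were called in every alternative run for them. The labels do not say whether shared replicate numbers pair the libraries. Correlations of deviations were -0.001, -0.064 and 0.082 for shared numbers and -0.102 to 0.097 for unlike numbers. With 3 libraries in each group these values cannot settle the pairing. The replicate block gave 45 higher and 1 lower, beside 22.8% and 22.3% of all genes. Depth limits the members with few reads. The widest standard errors, from 0.38 to 0.5, were those of Mrps27, Mrps31, Mrpl9, Mrps18a, Mrps5, Mrpl4, Mrpl23 and Mrps36.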
